A study of Mus musculus with 8 samples.

Results

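Oxidative phosphorylation genes encode the respiratory chain and the ATP synthase of mitochondria. They were taken here by gene symbol: the Nduf genes of complex I (letters a, b, c, s and v), Sdha to Sdhd of complex II, the Uqcr genes and Cyc1 of complex III, the Cox genes numbered 4 to 8 of complex IV, the Atp5 genes of complex V, and Cycs, the cytochrome c that carries electrons from complex III to complex IV. The rule found 87 of the 23523 genes in the table: 38 of complex I, 4 of complex II, 9 of complex III, 18 of complex IV, 17 of complex V and Cycs. It covers only subunits encoded in the nucleus, and no measured value entered it.

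RNA-seq libraries came from normal mouse brain (3 samples) and from mouse glioblastoma (5 samples). The tumours were induced with a lentiviral vector that expresses HrasG12V, an activated Ras oncogene, together with an shRNA against p53, and they were taken from mice at clinical endpoints, with the GFP+ tumour freed of normal brain under a dissecting microscope. The strain, age and sex of the mice, the cell type the vector entered, and the brain region of the normal samples are not stated in any source used here. No label ties a sample to an animal of its own, and the p-values measure only the spread between these samples. The libraries held between 5490351 and 15564280 fragments. Hras, the oncogene of the vector, was at 94.2 to 103 CPM in the brains and 327 to 479 CPM in the tumours, and Trp53, the target of the shRNA, at 4.74 to 7.21 CPM and 2.74 to 5.92 CPM, which overlapped and was not called.

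As background, complexes I and II take electrons from NADH and succinate and pass them to ubiquinone, complex III passes them to cytochrome c, and complex IV hands them to oxygen. Complexes I, III and IV pump protons across the inner membrane, and complex V uses the return flow to make ATP. Neurons depend heavily on this pathway to pay for ion pumping and synaptic transmission, and many tumours obtain part of their ATP from glycolysis instead.

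With TMM scaling, the oxidative phosphorylation genes differed less between tumour and brain than genes did in general, and each of complexes I to V held genes called in both directions. The share called and the split by direction depend on the scaling. Once a trend with transcript length was removed, 59 of 79 genes were lower and 1 was higher, beside 34% and 36.3% of all genes. Their median log2 fold change was then -0.76, and the absolute size of change was not compared with that of all genes in that setting. Levels are given as CPM, the usual count scaled to library size, after adjusting each library with TMM (a factor that sets the bulk of genes equal between libraries), and fold changes as log2 of glioblastoma over normal brain with their standard error. A gene was called when its edgeR quasi-likelihood test had a Benjamini-Hochberg adjusted p below 0.05 over the 14641 genes tested. Of the 87, 79 passed the filter on low counts, of which 12 were called higher in glioblastoma, 17 lower and 50 neither. Among all genes tested, 37.1% were called higher and 33.9% lower, so a smaller share of the oxidative phosphorylation genes was called in either direction. The median absolute log2 fold change was 0.32 over the 79 and 1.18 over all genes. Only 5 of the 79 were called with a change of at least 2-fold (Sdha, Cycs, Cox6a2, Cox4i2 and Cox6b2), beside 53.2% of all genes. In 13 of the 79 every tumour lay above every brain, and in 19 every tumour lay below. Over all genes tested these shares were 36.1% and 34.5%. The sum over the 87 genes was 10675 ± 328 CPM in brain (SD, n = 3) and 9410 ± 852 CPM in glioblastoma (SD, n = 5), a ratio of 0.882. In such bulk samples, fewer cells of a type and less RNA per cell cannot be told apart.

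**Figure D1:**
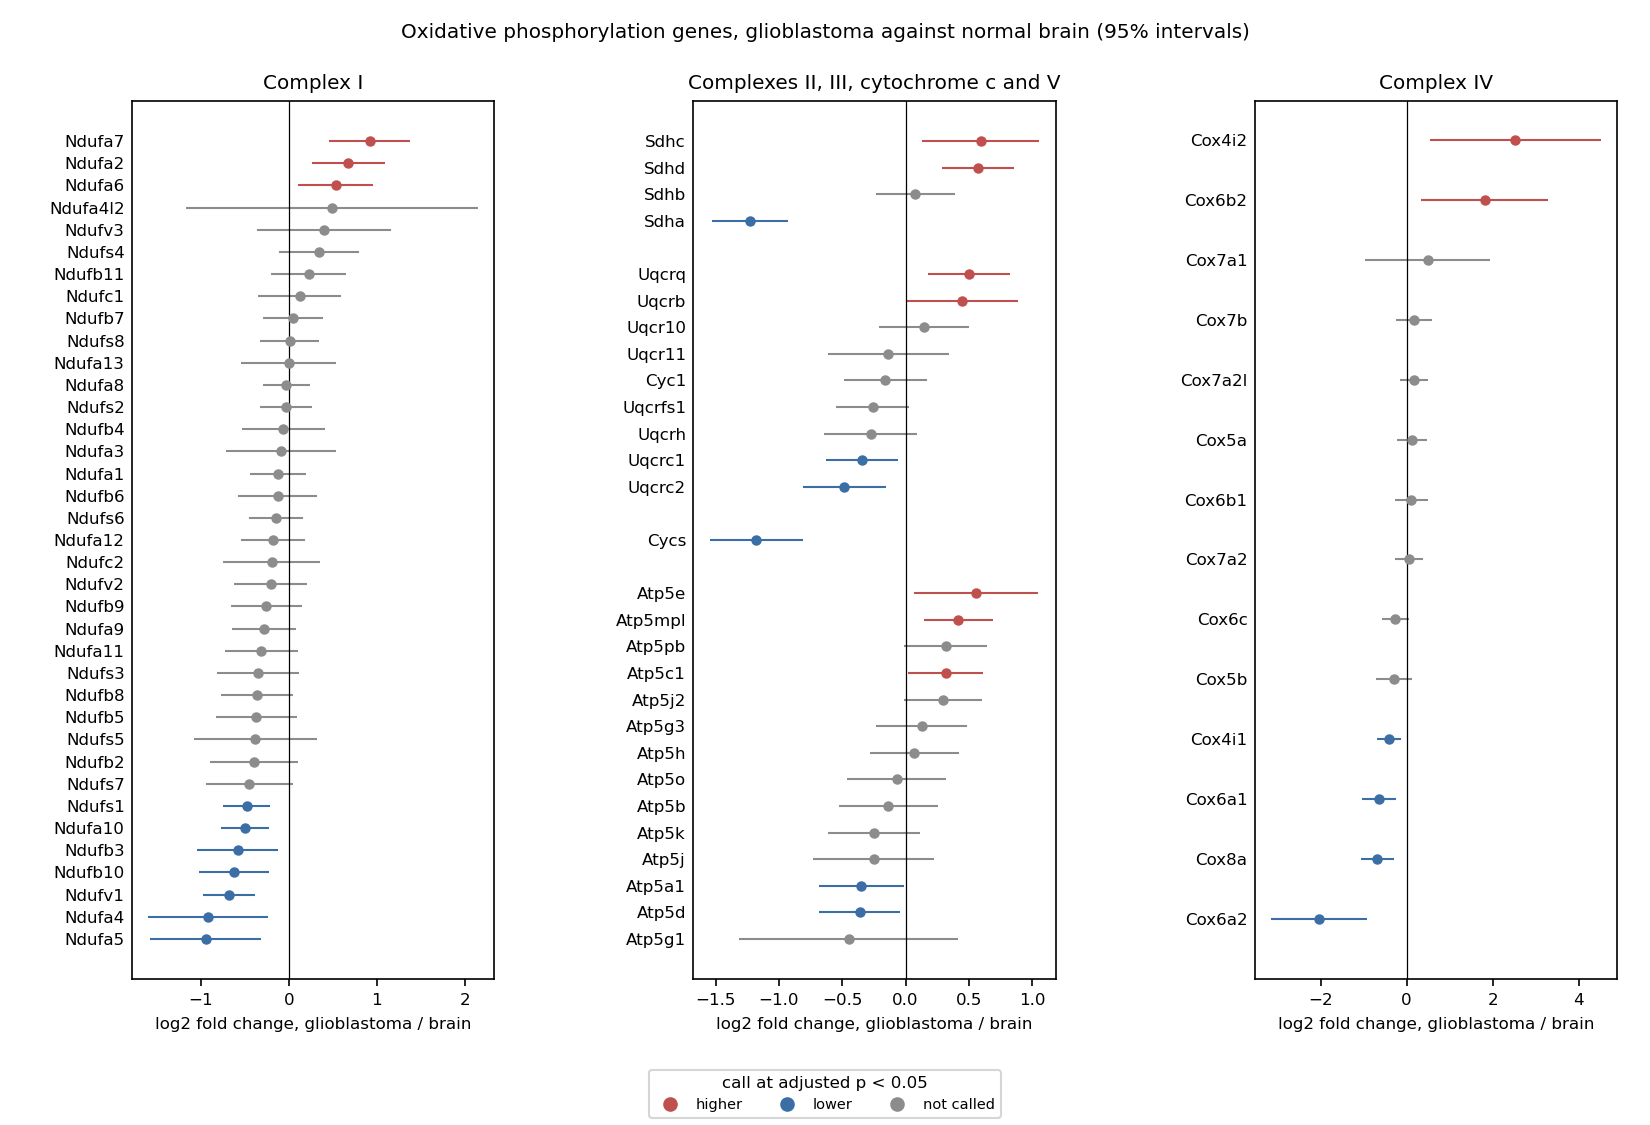
Each point is the log2 fold change of 1 gene, glioblastoma over normal brain, with its 95% interval, ordered within complex I (left), complexes II, III, cytochrome c and V (middle, from top to bottom, separated by gaps) and complex IV (right, with a wider axis). Colours mark genes called higher (12), lower (17) or not called (50), and each complex from I to V holds genes called in both directions.

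The split between higher and lower depended on how libraries were scaled. With library size alone 14 were higher and 9 lower, and with upper quartile factors 14 were higher and 13 lower. Among all 14641 genes tested, 5893 were higher and 4410 lower with library size alone, and 5840 and 4530 with upper quartile factors. These scalings moved the median of all genes from 0.06 to 0.20 and 0.18, so that the median of the 79 members went from -0.14 to 0.01 and -0.01. Relative to the median of all genes, the members' median was lower by a similar amount under each scaling. Leaving out tumour 4 raised the number called lower to 26, with 12 higher. In that fit 5465 of all 14510 genes tested were lower and 5741 higher, against 4964 and 5426 of 14641 with all libraries.

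Transcript length moved with the fold change. Most of these genes have short transcripts: when the genes tested were divided by relative transcript length (fragments per unit of FPKM) into 8 classes of equal size, 62 of the 79 fell into the shortest class. The 1769 other genes of that class had a median log2 fold change of 0.59, with 50.6% called higher and 21.8% lower. The 62 members had a median of -0.08, with 11 higher and 10 lower. Across the classes, the median of the other genes went from 0.59 in the shortest to -0.30 in the longest. When the trend of each library with length was removed (a setting added after seeing the data), 1 member was higher and 59 were lower, beside 36.3% and 34% of all genes, and the members' median was -0.76. All 17 genes called lower stayed lower in that setting, joined by 38 that had not been called and by 4 that had been called higher. Of the 12 called higher, Cox4i2 stayed higher, 7 turned negative (Ndufa2, Ndufa6, Uqcrq, Uqcrb, Atp5e, Atp5mpl and Atp5c1) and 4 kept their sign without being called (Ndufa7, Sdhc, Sdhd and Cox6b2). Whether the trend comes from the tissues or from the libraries was not tested. Among the 79 members, the 17 falls were called with and without the trend, and of the rises only that of Cox4i2 was.

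**Figure D2:**
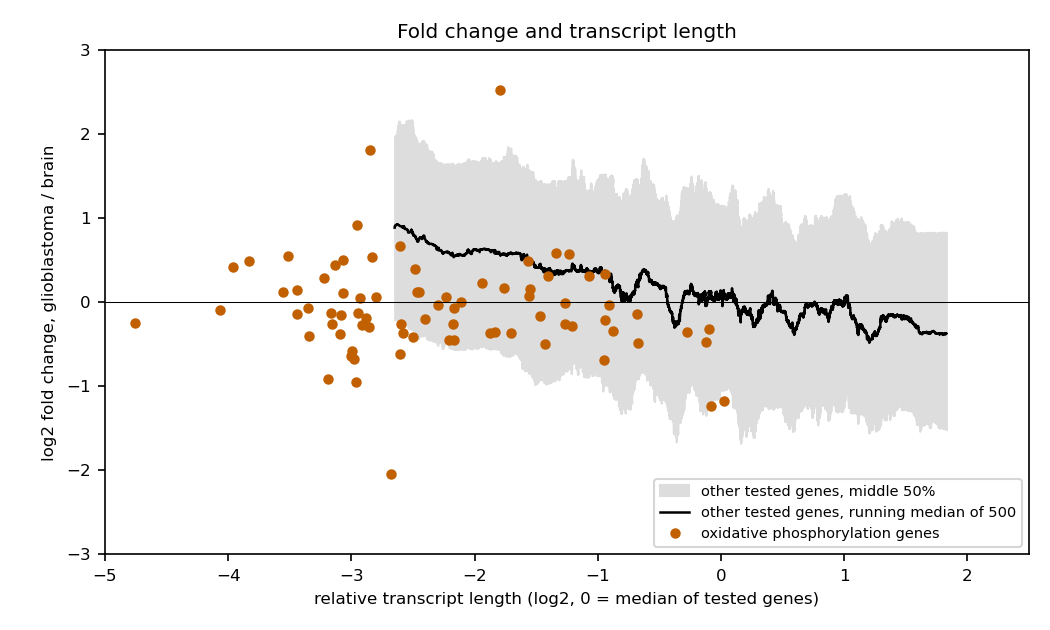
The horizontal axis is relative transcript length on a log2 scale with 0 at the median of all genes tested, and the vertical axis is the log2 fold change, glioblastoma over normal brain. The black line is the running median of 500 other genes and the grey band their middle 50%, which sit above 0 at short lengths, while most oxidative phosphorylation genes (orange points) lie at short lengths and below the line.

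The tissue pieces also differed in markers of cell types. Counts of markers called stand beside 37.1% higher and 33.9% lower over all genes tested. Among neuron markers, 4 of 6 were lower and the other two were not called, and their summed level was 5716 to 6893 CPM in the brains and 497 to 919 CPM in the tumours. All 6 oligodendrocyte markers were lower (3086 to 5996 CPM against 239 to 840 CPM). Of 6 astrocyte markers, 3 were lower and none higher (4571 to 5047 CPM against 895 to 2518 CPM). Slc1a2 made up most of that sum in brain (mean 3186 CPM, against 193 CPM in the tumours). The 3 astrocyte markers not called, Gfap, Gja1 and Aldh1l1, had higher means in the tumours than in brain. All 6 macrophage or microglia markers were higher (149.7 to 162 CPM against 415 to 783 CPM), as were all 6 markers of dividing cells (6.78 to 10.1 CPM against 447 to 1191 CPM). Endothelial markers were higher in 4 of 5 (73.3 to 85.6 CPM against 125 to 335 CPM), and pericyte markers in 2 of 6 (79.3 to 98.1 CPM against 121 to 266 CPM). No marker of these lists was at 0 in all libraries. Their part in the changes of the oxidative phosphorylation genes was not tested.

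Complex II, succinate dehydrogenase, is the only enzyme shared by the respiratory chain and the citric acid cycle, and its 4 subunits split. Sdha, the flavoprotein that oxidises succinate, had 529, 492 and 506 CPM in brains 1 to 3 and 188, 202, 224, 237 and 235 CPM in tumours 1 to 5. Every tumour lay far below every brain (log2 fold change -1.23 ± 0.12, edgeR adjusted p = 3.44e-05). Sdhb, the iron-sulfur subunit that takes the electrons from Sdha, had 128, 131 and 134 CPM in brains 1 to 3 and 133, 142, 115, 157 and 142 CPM in tumours 1 to 5. Those groups overlapped, and Sdhb was not called (log2 fold change 0.08 ± 0.13, edgeR adjusted p = 0.612, 95% interval -0.24 to 0.39). The membrane anchors, which bind ubiquinone and heme, were higher. Sdhc had 93.5, 83.5 and 94.2 CPM in brains 1 to 3 and 138, 147, 113, 179 and 105 CPM in tumours 1 to 5 (log2 fold change 0.59 ± 0.19, edgeR adjusted p = 0.0196). For Sdhd the levels were 92.7, 90.8 and 93.8 CPM in brains 1 to 3 and 122, 144, 151, 135 and 137 CPM in tumours 1 to 5 (log2 fold change 0.57 ± 0.12, edgeR adjusted p = 0.00191). For both anchors all 5 tumours lay above all 3 brains. The fall of Sdha was called with each of the 8 libraries left out, as was the rise of Sdhd, whereas Sdhc was called in 6 of 8. With the length trend removed the log2 fold changes were -1.24 for Sdha, -0.34 for Sdhb, 0.24 for Sdhc and 0.27 for Sdhd. Per transcript length (FPKM), Sdha stood at 1.75 ± 0.07 times the mean of the other 3 subunits in brain (SD, n = 3) and at 0.581 ± 0.075 times in glioblastoma (SD, n = 5). That ratio was 1.70 to 1.83 in the brains and 0.512 to 0.671 in the tumours, without overlap.

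**Figure D3:**
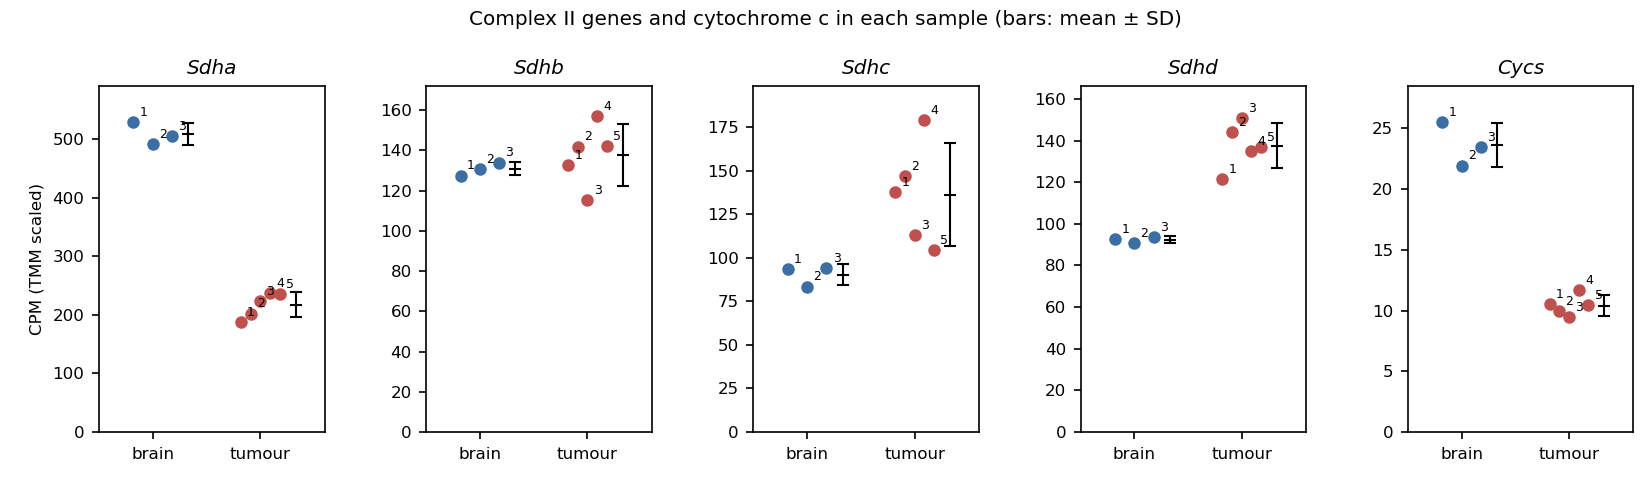
The vertical axis of each panel is the level in CPM, starting at 0. Points are samples numbered within their group, and bars give the mean and SD of 3 brains and 5 tumours. Sdha and Cycs sit below the brains in every tumour, Sdhc and Sdhd above in every tumour, and Sdhb overlaps.

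Cytochrome c fell about as far as Sdha. Cycs, the mobile carrier between complexes III and IV that also triggers apoptosis when released, had 25.5, 21.9 and 23.4 CPM in brains 1 to 3 and 10.5, 9.92, 9.45, 11.7 and 10.4 CPM in tumours 1 to 5. All 5 tumours were below all 3 brains (log2 fold change -1.18 ± 0.15, edgeR adjusted p = 0.000129), the call held with each library left out, and the value with the length trend removed was -1.14. The deposited counts gave Cycs 475 fragments in the 3 brains together and 528 in the 5 tumours, and 28.2% of the 50-base windows of its transcript also occur in other annotated genes, so its level is uncertain. The promoter of Cycs is shown because it holds the core of NRF1, a factor known to activate respiratory chain genes. The stretch lies on the minus strand at chr6:50566570-50566642 (GRCm38.p6, RefSeq), before the gene's start, and capitals mark the core on either strand.
Cycs: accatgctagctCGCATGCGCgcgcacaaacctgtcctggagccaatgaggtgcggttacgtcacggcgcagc

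The factors known to drive these genes leave recognisable letters in promoters, and 69 of the 87 members had a promoter of 300 bases (250 before the start and 50 after) in the RefSeq table. The NRF1 core GCGCATGCG, searched on both strands, was in 9 of the 69 (13.0%), beside 1.95% of all 27025 promoters of that length. The GABPA core CCGGAAG was in 17 (24.6%, beside 9.93%), and the YY1 core AAGATGGC in 10 (14.5%, beside 3.19%). Matches of different motifs could overlap. At least 1 of the 3 was found in 31 members (44.9%, beside 14.1%). Of the 9 promoters with the NRF1 core, 3 belonged to genes called lower (Cycs, Cox6a1 and Uqcrc1), none to genes called higher, 4 to genes not called and 2 to genes not tested. All 10 promoters with the YY1 core belonged to genes not called, and those with the GABPA core to 2 higher, 2 lower, 11 not called and 2 not tested. Of all 79 members tested, 12 were higher, 17 lower and 50 not called, and nothing is read from the calls by motif. The matches describe letters and not bound sites.

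Complex I, NADH dehydrogenase, is the largest complex of the chain, and 7 of its 37 genes tested were lower, 3 higher and 27 not called, with a median log2 fold change of -0.18. Counts by complex and by part of a complex, here and below, stand beside 37.1% higher and 33.9% lower over all genes tested. The range was -0.94 to 0.92. The remaining gene of the 38, the pseudogene Ndufs5-ps, had 0 fragments in all 8 libraries. Of the 7 core subunits encoded in the nucleus, which hold the flavin and the iron-sulfur clusters, Ndufv1 and Ndufs1 were lower and the other 5 were not called. Ndufv1, the subunit that binds NADH and flavin, had 216, 204 and 203 CPM in brains 1 to 3 and 124, 137, 116, 148 and 122 CPM in tumours 1 to 5. No tumour reached a brain (log2 fold change -0.68 ± 0.12, edgeR adjusted p = 0.00091). Ndufs1, the largest iron-sulfur subunit, had a lower level too (log2 fold change -0.48 ± 0.11, edgeR adjusted p = 0.00372). The summed level of these core genes was 1001 ± 27.2 CPM in brain (SD, n = 3) and 803 ± 61.4 CPM in glioblastoma (SD, n = 5).

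Accessory subunits, which surround the core and are needed for assembly and stability, gave 5 falls and 3 rises among 30 tested. Ndufa5, which sits on the arm that reaches into the matrix, had 74.9, 69.4 and 71.3 CPM in brains 1 to 3 and 47.9, 31.9, 24.2, 53.2 and 29.2 CPM in tumours 1 to 5. The tumours were all lower and spread over a range wider than that of the brains (log2 fold change -0.94 ± 0.26, edgeR adjusted p = 0.00937). Ndufa4, counted with complex I by its symbol although its protein is now known as a subunit of complex IV, had 197, 178 and 198 CPM in brains 1 to 3 and 127, 76.5, 69.8, 156 and 76.0 CPM in tumours 1 to 5. Tumours 1 and 4 lay nearest to the brains, and none reached them (log2 fold change -0.92 ± 0.28, edgeR adjusted p = 0.0158), though with library size alone Ndufa4 was not called (adjusted p = 0.0571). The other falls were those of Ndufb10, Ndufb3 and Ndufa10, at -0.62, -0.58 and -0.50 on the log2 scale, each without overlap of the groups.

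On the other side, Ndufa7 had 52.6, 52.1 and 51.5 CPM in brains 1 to 3 and 96.8, 91.3, 90.9, 136 and 77.0 CPM in tumours 1 to 5. All tumours exceeded all brains (log2 fold change 0.92 ± 0.19, edgeR adjusted p = 0.00216). Ndufa2 had 73.8, 66.1 and 74.4 CPM in brains 1 to 3 and 99.0, 114, 112, 149.6 and 95.02 CPM in tumours 1 to 5, again without overlap (log2 fold change 0.67 ± 0.17, edgeR adjusted p = 0.00643). Ndufa6 had 79.2, 64.2 and 70.8 CPM in brains 1 to 3 and 95.9, 104, 125, 114 and 77.3 CPM in tumours 1 to 5. Tumour 5 fell among the brains for this gene (log2 fold change 0.54 ± 0.17, edgeR adjusted p = 0.0216). Ndufa7 and Ndufa2 were called with each library left out and Ndufa6 in 6 of 8 such fits. With the length trend removed none of these 3 was called, at 0.03, -0.08 and -0.31. Among the 27 complex I genes not called, the estimates lay within 0.49 of 0 on the log2 scale. Without tumour 4, 14 complex I genes were lower, against 7 with all libraries. Over all genes tested, 5465 of 14510 were lower without tumour 4, against 4964 of 14641 with all libraries.

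Complex III, the cytochrome bc1 complex, had 2 genes lower, 2 higher and 5 not called among 9. Both core proteins, which are related to mitochondrial processing peptidases and carry no redox centre, were lower. Uqcrc2 had 307, 298 and 297 CPM in brains 1 to 3 and 213, 205, 226, 254 and 178 CPM in tumours 1 to 5 (log2 fold change -0.48 ± 0.13, edgeR adjusted p = 0.0105). Uqcrc1 had 249.8, 219 and 230.1 CPM in brains 1 to 3 and 177, 167, 202, 186 and 187 CPM in tumours 1 to 5 (log2 fold change -0.34 ± 0.12, edgeR adjusted p = 0.0247). Neither group overlapped the other for these genes, but Uqcrc1 was called in only 4 of the 8 fits that left out a library, and with library size alone neither was called (adjusted p = 0.0707 for Uqcrc2 and 0.132 for Uqcrc1, edgeR). The subunits that carry electrons were not called. Cyc1, which holds the heme of cytochrome c1, had 124, 119.9 and 116 CPM in brains 1 to 3 and 111, 115, 122, 88.9 and 98.7 CPM in tumours 1 to 5. These overlapped (log2 fold change -0.16 ± 0.13, edgeR adjusted p = 0.306), and the Rieske iron-sulfur protein Uqcrfs1 missed the threshold (log2 fold change -0.26 ± 0.12, edgeR adjusted p = 0.0744).

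The 5 small subunits of complex III gave 2 rises, which did not hold with the length trend removed. Uqcrq had 37.6, 37.8 and 42.5 CPM in brains 1 to 3 and 49.5, 54.7, 58.2, 63.8 and 52.0 CPM in tumours 1 to 5 (log2 fold change 0.50 ± 0.13, edgeR adjusted p = 0.0078, and -0.42 with the trend removed). Uqcrb had 26.2, 22.2 and 25.9 CPM in brains 1 to 3 and 30.1, 45.5, 32.3, 31.3 and 30.1 CPM in tumours 1 to 5. Tumour 2 stood above the other tumours (log2 fold change 0.45 ± 0.18, edgeR adjusted p = 0.0493), and Uqcrb was called in only 2 of 8 fits with a library left out. In Uqcrb 43.2% of the 50-base windows occur in other annotated genes, so its level is uncertain. Uqcr10 had the highest FPKM of the complex, 367, 378 and 369.8 FPKM in brains 1 to 3 and 378, 491, 395, 452 and 327 FPKM in tumours 1 to 5, and was not called (log2 fold change 0.15 ± 0.15, edgeR adjusted p = 0.389). The summed level of the small subunits was 373 ± 8.19 CPM in brain (SD, n = 3) and 378 ± 51.1 CPM in glioblastoma (SD, n = 5), while that of the core proteins was 534 ± 20.9 CPM and 399 ± 33.4 CPM.

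Complex IV, cytochrome c oxidase, has nuclear subunits that exist in widely expressed and tissue-restricted versions. Of 14 genes tested, 4 were lower, 2 higher and 8 not called. Cox4i1, which had the highest FPKM of all 87 genes in brain (mean 953 FPKM, beside 819.7 FPKM for Atp5b) but not in the tumours (711 FPKM, beside 741 FPKM for Atp5b), had 487, 465 and 491 CPM in brains 1 to 3 and 334, 395, 368, 376 and 333 CPM in tumours 1 to 5. The groups did not overlap (log2 fold change -0.41 ± 0.12, edgeR adjusted p = 0.011). Cox6a1, a regulatory subunit, had 231, 218 and 205 CPM in brains 1 to 3 and 140.2, 132, 126, 182 and 118 CPM in tumours 1 to 5. Tumour 4 was the nearest to the brains and still below them (log2 fold change -0.64 ± 0.16, edgeR adjusted p = 0.0055). Cox8a, a small subunit within the membrane, had 167, 171 and 168 CPM in brains 1 to 3 and 105, 106, 104, 132 and 79.7 CPM in tumours 1 to 5 (log2 fold change -0.68 ± 0.16, edgeR adjusted p = 0.00418). Those 3 falls were called with each of the 8 libraries left out, whereas with library size alone Cox4i1 was not called (edgeR adjusted p = 0.0597). Cox5a, Cox5b, Cox6b1, Cox6c, Cox7a2, Cox7a2l and Cox7b were not called, with estimates from -0.30 to 0.18.

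The promoter of Cox6a1 is shown as the other gene called lower whose NRF1 core lies before the start. It is at chr5:115348982-115349129 on the minus strand (GRCm38.p6, RefSeq), with capitals for the core, which in this palindromic run matches on both strands.
Cox6a1: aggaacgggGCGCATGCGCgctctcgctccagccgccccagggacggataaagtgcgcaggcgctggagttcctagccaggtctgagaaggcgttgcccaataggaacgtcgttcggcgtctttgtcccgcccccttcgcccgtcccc

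The tissue-restricted versions were low in all samples, and 3 of them shifted against their widely expressed partner. Cox4i2, the version of subunit 4 known from lung and from oxygen-sensing cells, had 0.846, 0.721 and 0.818 CPM in brains 1 to 3 and 3.57, 0.902, 3.40, 11.9 and 2.83 CPM in tumours 1 to 5. Tumour 4 was far above the other tumours, and tumour 2 was only slightly above the brains (log2 fold change 2.53 ± 0.81, edgeR adjusted p = 0.0203). As a share of the FPKM of Cox4i1 and Cox4i2 together, Cox4i2 made up 0.141% to 0.157% in the brains and 0.207% to 2.81% in the tumours. Cox6b2, best known from testis, had 0.677, 0.144 and 0.545 CPM in brains 1 to 3 and 1.55, 0.902, 0.882, 2.56 and 1.94 CPM in tumours 1 to 5 (log2 fold change 1.82 ± 0.60, edgeR adjusted p = 0.0232). Its share beside Cox6b1 was 0.1004% to 0.378% in brain and 0.464% to 1.38% in glioblastoma. Cox6a2, the version of heart and skeletal muscle that is also known in some neurons, had 4.23, 2.31 and 2.59 CPM in brains 1 to 3 and 0.310, 0.902, 0.504, 1.22 and 0.566 CPM in tumours 1 to 5 (log2 fold change -2.04 ± 0.45, edgeR adjusted p = 0.00333). Its share beside Cox6a1 was 0.763% to 1.31% in brain and 0.160% to 0.493% in glioblastoma. None of these 3 shares overlapped between the groups, but none reached 3% in any sample.

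Those rises rest on few fragments. Cox4i2 had 16 fragments in the 3 brains together and 295 in the 5 tumours, was called in 5 of 8 fits with a library left out, and had log2 fold changes from 1.76 to 2.78 across them. Cox6b2 was called in 3 of 8 and not with the length trend removed. Cox6a2 was called in all 8. The summed level of 6 striated muscle markers was 8.51 to 10.8 CPM in the brains and 1.71 to 3.61 CPM in the tumours. Most of that sum in brain was Acta1 (6.66 CPM), which was lower in the tumours (0.923 CPM). Actn3, the other marker tested, was not called (edgeR adjusted p = 0.340), and Ckm was at 0 in all libraries. Tnnt3, Myl1 and Myh4 were too low to be tested. Tnnt3 and Myl1 had higher means in the tumours (0.253 and 0.334 CPM) than in brain (0.161 and 0.206 CPM). Myh4 went the other way, with a mean of 0.619 CPM in brain and 0 in every tumour. In the tumours, 4 of 5 endothelial and 2 of 6 pericyte markers were higher, beside 37.1% of all genes tested. Tumour 4, with the highest Cox4i2, had the lowest endothelial sum of the tumours (125 CPM) and a pericyte sum of 159.6 CPM, inside the range of the others. Of the 6 pericyte markers, Notch3 (17.5 CPM), Kcnj8 (8.33 CPM) and Higd1b had their highest level in tumour 4. Pdgfrb had its lowest tumour level there (28.1 CPM), and Rgs5 and Abcc9 lay inside the range of the other tumours. The part of these muscle, endothelial and pericyte markers was not tested.

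The other pairs showed no separation. Cox7a1, the version of heart and skeletal muscle, made up 1.21% to 3.77% beside Cox7a2 in brain and 1.42% to 5.31% in glioblastoma. Ndufa4l2, known as a target of hypoxia signalling, made up 0.0618% to 0.290% beside Ndufa4 in brain and 0.0902% to 0.967% in glioblastoma, and was not called (log2 fold change 0.49 ± 0.68, edgeR adjusted p = 0.538, 95% interval -1.17 to 2.15). Of the 3 genes for subunit c of ATP synthase, Atp5g1 made up 1.21% to 1.92% beside Atp5g3 in brain and 0.684% to 1.68% in glioblastoma. Cox7b2 and Cox8b were at or below 0.846 CPM in each library and were not tested.

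**Figure D4:**
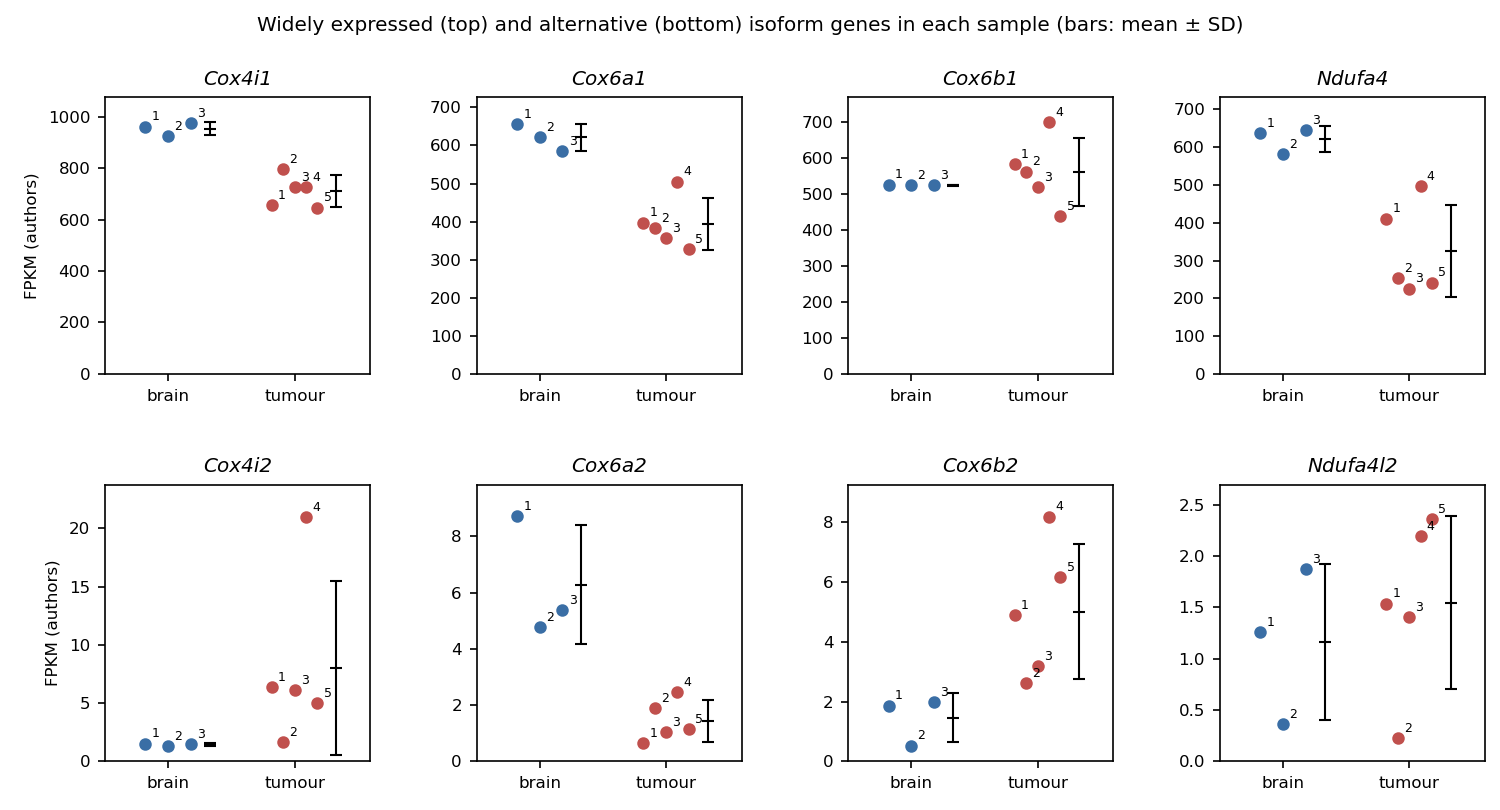
The vertical axes are FPKM, the authors' values per transcript length, each from 0 and with its own scale. The top row holds widely expressed genes and the bottom row the alternative version of the same subunit; points are samples numbered within their group, and bars are mean and SD. Cox4i2 and Cox6b2 were higher and Cox6a2 lower in every tumour, at levels far below those of the partners above them.

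Complex V, the ATP synthase, showed the smallest net difference: 3 of 14 genes tested were higher, 2 lower and 9 not called, and the summed level was 3766 ± 142 CPM in brain (SD, n = 3) and 3528 ± 304 CPM in glioblastoma (SD, n = 5), a ratio of 0.937. In the F1 head, where ATP is made, Atp5b, the catalytic beta subunit, had the highest FPKM of the complex and was not called (1557, 1395 and 1405 CPM in brains 1 to 3 and 1489, 1170.5, 1585, 1269 and 1097 CPM in tumours 1 to 5, log2 fold change -0.14 ± 0.16, edgeR adjusted p = 0.466). Atp5a1, the alpha subunit, had 1193, 1131 and 1140.2 CPM in brains 1 to 3 and 870.2, 1018, 892, 995 and 758 CPM in tumours 1 to 5. Tumours were all lower (log2 fold change -0.35 ± 0.14, edgeR adjusted p = 0.0448). Atp5d, the delta subunit of the central stalk, had 84.2, 84.8 and 84.1 CPM in brains 1 to 3 and 70.1, 57.7, 72.6, 71.1 and 56.6 CPM in tumours 1 to 5, also without overlap (log2 fold change -0.36 ± 0.13, edgeR adjusted p = 0.0321). Both falls were called in 2 of 8 fits with a library left out, and with library size alone or upper quartile factors no complex V gene was lower.

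Other genes of complex V were higher, 2 of them of the central stalk. Atp5c1, the rotating gamma subunit, had 200.5, 189 and 209 CPM in brains 1 to 3 and 245, 226, 279.7, 262 and 229.8 CPM in tumours 1 to 5 (log2 fold change 0.32 ± 0.12, edgeR adjusted p = 0.043). Atp5e, the epsilon subunit, had 85.1, 87.4 and 87.8 CPM in brains 1 to 3 and 125, 112, 126, 179 and 94.9 CPM in tumours 1 to 5. Tumour 4 was the highest and tumour 5 lay nearest to the brains (log2 fold change 0.56 ± 0.20, edgeR adjusted p = 0.0328). Atp5mpl, a small proteolipid of the membrane part, had 82.2, 81.2 and 83.4 CPM in brains 1 to 3 and 112, 111, 114, 116 and 97.5 CPM in tumours 1 to 5 (log2 fold change 0.42 ± 0.11, edgeR adjusted p = 0.00825). Atp5c1 was called in 3 of 8 fits with a library left out, Atp5e in 4 and Atp5mpl in all 8. With the length trend removed all of these turned negative, at -0.05, -0.52 and -0.82. The 4 genes of the peripheral stalk (Atp5pb, Atp5h, Atp5j and Atp5o) were not called, from -0.25 to 0.32. Atp5g3, which supplied nearly all counted fragments for subunit c, the ring that turns with proton flow, was not called (210.1, 209 and 204 CPM in the brains, 210.5, 208, 279.9, 193 and 244 CPM in the tumours, log2 fold change 0.13 ± 0.15, edgeR adjusted p = 0.461).

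Complex by complex, the summed level in glioblastoma was 0.872 of that in brain for complex I, 0.765 for complex II, 0.858 for complex III, 0.855 for complex IV and 0.937 for complex V. For complexes II and IV the sum fell below that of brain while the median over genes was above 0, at 0.33 and 0.08. Sdha and Cox4i1, both lower, hold the largest part of these sums. The complex IV median includes 4 tested tissue-restricted genes at low levels, whose own median was 1.15. Over the 10 widely expressed subunits tested the median was -0.10, with 3 lower and 0 higher. Medians for complexes III and V were -0.16 and 0.00. Under library size alone they were -0.04 for complex I, 0.46 for II, -0.03 for III, 0.23 for IV and 0.14 for V. Without tumour 4 the complex IV median was -0.13.

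The tumours varied among themselves more than the brains did. The median SD over the 79 genes was 0.070 in the brains and 0.247 in the tumours on the log2 CPM scale, and 97.5% of the genes had the larger SD in tumours, beside 85.1% of all genes tested (medians 0.154 and 0.379). Tumour 4 held the highest tumour value for 53 of the 79 (67.1%), beside 32.4% of all genes. Tumour 5 held the lowest for 41 (51.9%), beside 13.8% of all genes. Against the mean of the brains, the median over the 79 was 0.11 in tumour 4 and -0.32 in tumour 5, and between -0.18 and -0.11 in the other three. Tumour 4 also had the highest oligodendrocyte and astrocyte sums of the tumours (840.3 and 2518 CPM) and the lowest macrophage, endothelial and dividing-cell sums (415, 125 and 447 CPM). Its neuron sum was also the lowest of the tumours (497 CPM). It was the deepest library, at 15564280 fragments. Tumour 5 had the lowest oligodendrocyte sum (239 CPM), and its other sums lay within the range of the rest except for the highest pericyte sum (266 CPM). The part of these markers was not tested.

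**Figure D5:**
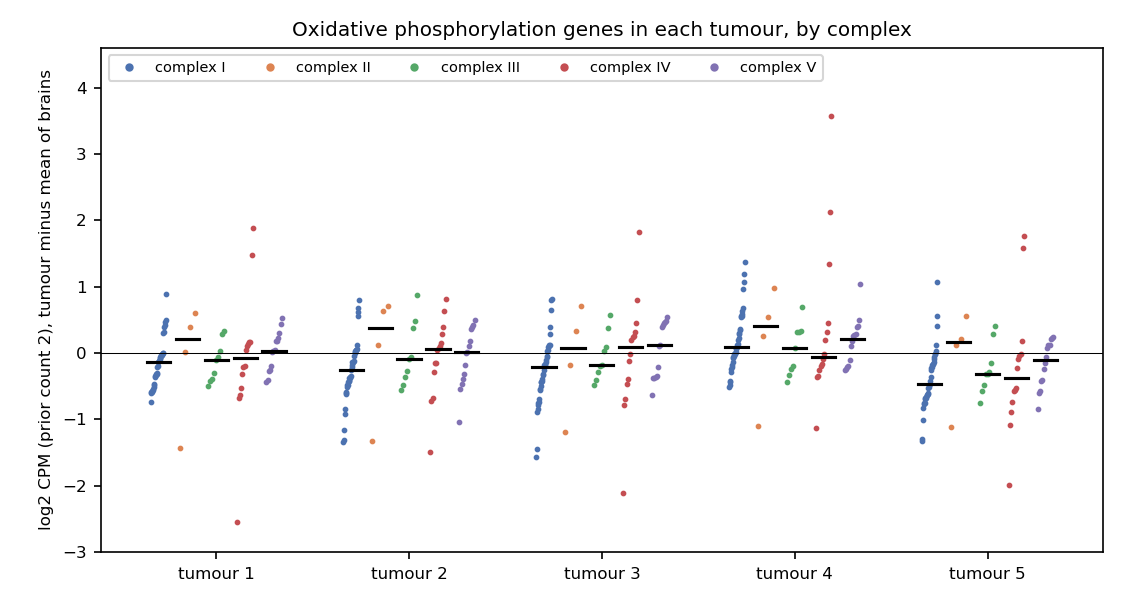
The vertical axis is log2 CPM of each gene in a tumour minus its mean in the 3 brains, so that 0 is the level of the brains. Points are genes, columns within a tumour are complexes I to V, and black lines are medians. For complex I the lines run from -0.47 in tumour 5 to 0.09 in tumour 4, and the lowest complex II point in each tumour is Sdha.

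Genes outside the rule that serve the same machinery were counted in lists taken from general knowledge of the pathway. Their counts stand beside 37.1% higher and 33.9% lower over all genes tested. Assembly factors, which insert cofactors and join subunits, gave 10 higher and 14 lower of 44 tested, with a median of -0.08. The largest falls were those of Lyrm7 (log2 fold change -2.31 ± 0.37, edgeR adjusted p = 0.000485) and Ttc19 (log2 fold change -2.28 ± 0.21, edgeR adjusted p = 1.86e-05), both known for their part in the maturation of complex III. Ttc19 went from 130.2 ± 8.07 CPM in brain (SD, n = 3) to 26.8 ± 7.18 CPM in glioblastoma (SD, n = 5).

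Pyruvate dehydrogenase and the citric acid cycle, which feed electrons to the chain, gave 11 lower and 1 higher of 17 tested, with a median of -0.60. Dlat, the acetyltransferase of pyruvate dehydrogenase, was lower (log2 fold change -1.45 ± 0.13, edgeR adjusted p = 1.5e-05). The exception, Suclg2, the subunit of succinyl-CoA ligase that makes GTP, was higher (log2 fold change 1.77 ± 0.26, edgeR adjusted p = 0.000309). With the length trend removed the counts of this list were the same, 11 lower and 1 higher.

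Mitochondrial ribosomal proteins gave 41 higher and 5 lower of 76 tested, with a median of 0.49. In the shortest length class, given above, the other genes had 50.6% higher, 21.8% lower and a median of 0.59. How the mitochondrial ribosomal genes divide among the length classes was not counted. The largest rises were those of Mrpl52 (log2 fold change 1.66 ± 0.18, edgeR adjusted p = 5.9e-05) and Mrpl22 (log2 fold change 1.66 ± 0.26, edgeR adjusted p = 0.000456). With the length trend removed 20 were higher and 13 lower, with a median of 0.13. Of 6 carriers and porins tested, which move ATP, phosphate and metabolites across the membranes, Vdac1 was lower (log2 fold change -1.74 ± 0.13, edgeR adjusted p = 5.84e-06) and Vdac2, Vdac3 and Slc25a5 were higher, Vdac2 the most (log2 fold change 0.88 ± 0.13, edgeR adjusted p = 0.00034).

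Regulators of mitochondrial gene expression gave 4 higher and 5 lower of 14 tested. Ppargc1a, the coactivator PGC-1alpha, went from 62.0 ± 7.85 CPM in brain (SD, n = 3) to 3.24 ± 1.67 CPM in glioblastoma (SD, n = 5; log2 fold change -4.23 ± 0.38, edgeR adjusted p = 1.82e-05). Its relative Ppargc1b was also lower (log2 fold change -3.30 ± 0.31, edgeR adjusted p = 2.28e-05). Nrf1, the factor whose core was searched above, was higher (log2 fold change 0.84 ± 0.13, edgeR adjusted p = 0.000461), as was Gabpa (log2 fold change 1.16 ± 0.17, edgeR adjusted p = 0.000305). Tfam, which packages mitochondrial DNA and helps to start its transcription, was not called (log2 fold change -0.23 ± 0.17, edgeR adjusted p = 0.248).

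The 8 members that were not tested had almost no fragments. Besides Ndufs5-ps, Cox7b2, Cox8b and Cox8c, they were Cox7c, Atp5g2, Atp5l and Atp5md, whose levels did not exceed 0.776 CPM in any library. These last 4 encode subunits known from most tissues. Of the 86 members with a transcript in the GENCODE table, 48 shared no 50-base window with another annotated gene, and 13 shared over 25%. The share was 87.4% for Atp5g2, 68.5% for Atp5l, 53.0% for Cox7c and 40.6% for Atp5md. Among tested genes, Ndufa12 (53.8%) and Atp5h (50.5%) shared about as much as Cox7c and less than Atp5g2 and Atp5l. Both were counted, at means of 48.4 and 35.9 CPM in brain. Whether shared sequence accounts for the missing counts was not tested. Ndufab1, a complex I subunit outside the rule, was also near the floor, at 0.509 ± 0.210 CPM in brain (SD, n = 3) and 1.503 ± 0.415 CPM in glioblastoma (SD, n = 5). Leaving out the 9 tested members with over 25% shared windows gave 11 higher and 16 lower.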

How the data were processed

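RNA libraries of 3 normal brains and 5 glioblastomas were made with the TruSeq RNA kit after column extraction with DNase, per the labels' protocols. STAR 2.3.0e, Cuffdiff 2.1.1 and the mm9 build are named, without roles, per the submitters' processing notes. The authors deposited estimated counts of fragments for each of 30967 RefSeq accessions and library, and FPKM values, per the file headers. The annotation release, any filters and the strand setting are not stated in these sources.

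Symbols came from the RefSeq table of GRCm38.p6 for 30474 accessions and from GENCODE for 178, and 315 kept their accession. The counts of a gene's accessions were added and rounded. For genes with several accessions 97.8% of these sums were whole within 0.01. Because the reference is of another build, no coordinates of the files were used, and the coordinates printed are those of RefSeq promoters.

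Genes were tested with edgeR 4.0.16 (TMM, default filter, robust quasi-likelihood F test, Benjamini-Hochberg over 14641 genes, threshold 0.05) on all 8 samples without covariates. Intervals used 6 degrees of freedom, and log2 CPM a prior count of 2. At these depths 3 fragments equal 0.175 to 0.541 CPM in 1 library. On simulated data for this comparison (14376 genes, 200 of them changed) 72.2% of 4-fold changes and 13.1% of 2-fold changes were called by edgeR, and 2.35% of calls were false. In the real data 37.1% of genes were called higher and 33.9% lower, and with so many calls the adjusted threshold is less strict. The simulated percentages therefore do not give the share of changes missed here. Per-sample values were given for the complex II genes, Cyc1, Cycs, the 3 largest called falls and rises of complexes I, III, IV and V, the gene with the highest FPKM in each, and isoform pairs. Of other lists the 2 called genes with the largest change were named, with Nrf1, Gabpa and Tfam. The members and lists were chosen with earlier results of these data known.

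Alternatives were DESeq2 1.42.0, scaling by library size alone or with RLE or upper quartile factors, testing without a filter or above 5 CPM in 3 samples, limma 3.58.1 on log2(FPKM + 1) and log2(FPKM + 0.1), thinned libraries, genes with shared fragments left out, each library left out, and brain 1 and tumour 4 left out. Removal of the length trend (lowess, span 0.3) and leaving out members with shared sequence were added after seeing the data. A planned comparison of isoform proteins was not run. Scripts ran in R 4.3.3 and with numpy 2.4.6, pandas 2.3.3 and matplotlib 3.10.9.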

Additional observations from a re-analysis of the deposited data

Results flagged for a closer look

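In 3 of the named genes 1 of the 5 tumours stood apart from the other four by more than Dixon's criterion allows, which chance meets in about 1 in 20 groups. Because many genes were named, some such cases would arise by chance alone. Uqcrb was at 45.5 CPM in tumour 2, above the others. Cox4i2 was at 11.9 CPM in tumour 4, above the others, which leaves its rise resting on lower values of 0.902 to 3.57 CPM once that tumour is set aside. Atp5mpl was at 97.5 CPM in tumour 5, below the others and above all 3 brains.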

How the results depend on the processing

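The falls of Sdha, Ndufv1, Cox8a and Cox6a1 were called under each alternative run, and that of Cycs under each except the one that leaves out members with shared sequence, which removes Cycs itself. With the length trend removed, the counts higher and lower became 1 and 59 over all complexes, 0 and 27 for complex I, 0 and 2 for II, 0 and 9 for III, 1 and 9 for IV, and 0 and 11 for V; the medians became -0.76 over all complexes and -0.87, -0.05, -0.58, -0.77 and -0.67 for complexes I to V. In that setting the log2 fold change turned to -0.34 for Sdhb, -0.08 for Ndufa2, -0.31 for Ndufa6, -0.42 for Uqcrq, -0.50 for Uqcrb, -0.91 for Uqcr10, -0.52 for Atp5e, -0.82 for Atp5mpl, -0.05 for Atp5c1, -0.81 for Cox6b1, -0.55 for Cox7a2, -0.72 for Cox7a1, -0.28 for Cox7b and -0.56 for Atp5g3.

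With library size only, 9 genes were lower over all complexes, 4 in complex I, 0 in III and 0 in V, 5 were higher in V, whose median was 0.14, and Atp5b was at 0.00. With upper quartile factors, 1 was lower in III and 0 in V, 5 were higher in V, and its median was 0.12. Complex III had 1 gene higher, without Uqcrb, under DESeq2, RLE factors, the 5 CPM filter, both limma fits, thinning, shared-fragment genes left out and members with shared sequence left out. Without a filter, 1 was lower in III and 0 in V. The 5 CPM filter, which removes the tissue-restricted genes, left 0 higher in IV and a median of -0.10. Thinning left 1 higher in IV and 1 lower in V, and RLE factors 1 lower in V. Without brain 1 and tumour 4, 11 were lower in I, 1 was higher and 1 lower in III, and 1 was higher and 1 lower in V.

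Leaving out each library gave 5 to 13 higher and 13 to 26 lower over all complexes. By complex the ranges were 2 to 3 and 6 to 14 for I, 1 to 2 and 1 to 1 for II, 1 to 2 and 1 to 3 for III, 0 to 2 and 4 to 4 for IV, and 1 to 5 and 0 to 3 for V. The complex IV median ran from -0.13 to 0.11. The high counts lower came without tumour 4 (26 over all complexes, 14 in complex I), where 5465 of all 14510 genes tested were lower. The lowest counts higher came without a brain (7, 5 and 6 without brains 1, 2 and 3). In those fits 4848 of 14924, 4810 of 14913 and 4796 of 14863 genes tested were higher, against 5426 of 14641 with all libraries. The cause of these shifts was not tested. Depth limits the tissue-restricted genes, where 3 fragments are 0.175 to 0.541 CPM. No paired analysis was possible because the labels give no replicate numbers, and the numbers used here follow sample order and only name the samples.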
